A study of Mus musculus with 8 samples.

Results

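MHC class I antigen presentation is covered here by 10 genes: the class I heavy chain genes H2-K1 and H2-D1, their light chain B2m, the peptide loading genes Tap1, Tap2 and Tapbp, the transactivator Nlrc5, and the immunoproteasome subunit genes Psmb8, Psmb9 and Psmb10. They were chosen as the rows of the deposited raw count table that carry these symbols. All 10 were found among its 25239 genes, and all 10 passed the filter on low counts, which left 14861 genes for testing. The study compared RNA-seq of adult male mouse liver without and with deletion of Zfp36l1, whose product binds AU-rich elements of mRNAs and promotes their decay. The 4 control libraries are titled Zf36l1 fl/fl, with the genotype given as WT, and carry the floxed allele without a named Cre. The 4 knockout libraries are Zfp36l1 fl/fl Alb-Cre+. Both groups thus share the floxed allele, and the Cre transgene and the deletion differ together between them. The albumin promoter of Alb-Cre is active in hepatocytes, so other liver cells are not the intended target, and every library is whole liver RNA, in which fewer cells of a type and less RNA per cell cannot be told apart. The labels number the libraries 1 to 4 in each group but do not say whether each is a separate mouse, and the p-values therefore reflect the spread among these libraries, which may be technical.

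Class I molecules display peptides from inside the cell to CD8+ T cells. Peptides are cut by the proteasome, in which the interferon-inducible subunits encoded by Psmb8, Psmb9 and Psmb10 can replace the constitutive subunits encoded by Psmb5, Psmb6 and Psmb7. The TAP transporter, made of the Tap1 and Tap2 products, carries peptides into the endoplasmic reticulum, and tapasin (Tapbp) holds TAP beside the heavy chain with its light chain B2m until a peptide is bound. Nlrc5 is a transactivator that acts at class I promoters through an enhanceosome of RFX, CREB/ATF and NF-Y factors, and interferons raise the whole set through IRF factors, among others. Hepatocytes express class I molecules at a lower level than the sinusoidal and immune cells of the liver.

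The libraries held 104842873 to 140582588 counts, so that a floor of 3 counts equals 0.0215 to 0.0277 CPM, which covers counting error only. The 10 genes had 732 to 156673 counts per library, so none was near that floor. Levels are given as CPM, read counts scaled to library size by the trimmed mean of M-values (TMM), and fold changes as log2 values of knockout over control from edgeR's quasi-likelihood test, with adjusted p-values by the Benjamini-Hochberg method over all 14861 genes. Zfp36l1 was at 25.1% of the control level in the knockout libraries (exact two-sided permutation test over 70 assignments, p = 0.0286, the smallest possible), in the direction the labels give. The 9 defining markers of hepatocytes summed to 76990 to 84250 CPM in control and 91320 to 102100 CPM in knockout libraries, and none of them was at 0. Replicate libraries of a group differed by a mean chi-square of 82.8 to 370 per gene, and no pair came within sampling noise.

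The stretches upstream of the heavy chain and light chain genes are shown because the related heavy chain gene H2-Q10 passed the test in the comparison described further on, whereas H2-K1 and H2-D1 did not. The sequences are the 250 bases before the transcription start in RefSeq's table for GRCm38.p6, 5′ to 3′ on the gene's strand. RefSeq starts can differ from the GENCODE gene positions given further on. The windows of H2-D1, Tapbp, Psmb8 and Psmb9 lie inside those gene positions. Capitals mark 5 motifs searched on both strands: the interferon element in its class I form TTTCNNTTC and in its standard spacing GAAANNGAA, the NF-kB part GGGATTCCC of enhancer A, the CCAAT box ATTGG, and the CRE-like core TGACG. Of 32851 such windows, 6.31% hold TTTCNNTTC, 7.13% GAAANNGAA, 0.301% GGGATTCCC, 33.8% ATTGG and 17.8% TGACG. The sequences lie at chr17:34000334-34000583 (minus strand, H2-K1), chr17:35262844-35263093 (plus, H2-D1), chr17:35469839-35470088 (plus, H2-Q10), chr2:122147437-122147686 (plus, B2m) and chr17:34187306-34187555 (plus, Tap1).
H2-K1: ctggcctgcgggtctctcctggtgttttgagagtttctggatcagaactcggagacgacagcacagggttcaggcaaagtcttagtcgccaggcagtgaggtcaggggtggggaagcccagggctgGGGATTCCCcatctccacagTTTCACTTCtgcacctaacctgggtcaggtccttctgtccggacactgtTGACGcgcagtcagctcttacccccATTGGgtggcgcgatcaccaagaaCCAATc
H2-D1: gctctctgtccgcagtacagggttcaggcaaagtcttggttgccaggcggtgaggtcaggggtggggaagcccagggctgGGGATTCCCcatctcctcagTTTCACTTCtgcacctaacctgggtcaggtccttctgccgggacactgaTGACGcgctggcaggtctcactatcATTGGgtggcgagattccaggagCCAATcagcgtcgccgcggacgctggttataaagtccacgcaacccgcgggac
H2-Q10: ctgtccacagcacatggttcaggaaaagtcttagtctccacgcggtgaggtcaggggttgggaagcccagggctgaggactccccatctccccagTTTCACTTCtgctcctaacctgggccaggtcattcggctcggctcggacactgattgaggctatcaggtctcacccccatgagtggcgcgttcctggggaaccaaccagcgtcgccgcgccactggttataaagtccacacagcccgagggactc
B2m: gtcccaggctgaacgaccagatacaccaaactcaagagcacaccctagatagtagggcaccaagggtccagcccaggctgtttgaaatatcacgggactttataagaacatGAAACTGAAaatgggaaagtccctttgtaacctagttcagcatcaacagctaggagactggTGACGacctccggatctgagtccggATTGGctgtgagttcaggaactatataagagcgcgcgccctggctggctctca
Tap1: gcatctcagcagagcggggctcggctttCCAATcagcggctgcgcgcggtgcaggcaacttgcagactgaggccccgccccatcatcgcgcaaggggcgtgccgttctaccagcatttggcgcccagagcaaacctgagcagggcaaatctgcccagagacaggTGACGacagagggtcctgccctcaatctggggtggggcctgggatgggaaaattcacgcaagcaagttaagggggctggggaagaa
H2-K1 and H2-D1 were identical at 91.7% of 204 aligned positions. The shares were 90.3% of 196 for H2-K1 and H2-Q10 and 87.1% of 240 for H2-D1 and H2-Q10. Bases set against a gap are left out, so these shares rest on unequal lengths. H2-K1 and H2-D1 each held the class I interferon element, the NF-kB part, the CRE-like core and 2 CCAAT boxes, in the same order. RefSeq gives a further start for H2-K1, whose window (chr17:34000348-34000597) holds the same elements but 1 CCAAT box. H2-Q10 held the interferon element and no match to the other 4 motifs in this window. B2m held the interferon element in its standard spacing, a CRE-like core and a CCAAT box. The Tap1 window also lies for the most part upstream of the RefSeq start of Psmb9, which runs the other way, and held a CRE-like core and a CCAAT box. RefSeq's table held no window for H2-Q1, the other heavy chain gene that passed the test. It had windows for 8 of the 10 genes, Tap2 and Nlrc5 being the ones without. Across those 8, TTTCNNTTC was found in 2, GAAANNGAA in 1, GGGATTCCC in 2, ATTGG in 6 and TGACG in 5. The Tap1 and Psmb9 windows overlap, so the ATTGG and TGACG matches of these genes are the same sites, counted for each gene. A match describes the letters in a window and says nothing about binding.

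The comparison asked whether transcripts of class I presentation differed between knockout and control livers. No gene of the 10 passed the test. At adjusted p under 0.05 edgeR called 0 of 10, against 5.39% of all tested genes in either direction and 3.51% as higher. At an unadjusted p under 0.05 it called 1 of 10, Tap1, against 21.5% of all tested genes. DESeq2 and limma also called 0 of 10, and the lowest adjusted p of any of the 10 genes under 16 alternative settings was 0.0585, for Tap1 when replicate number was a block. The library values of the groups overlapped for all 10 genes, whereas they did not overlap for 15.1% of all tested genes. The fitted log2 fold change was above 0 for 8 genes and below 0 for Tapbp and Psmb10, with a median of 0.12 against −0.01 over all tested genes. When libraries were scaled by their total counts alone, the median of all genes became −0.12, and H2-K1, Tap2 and Nlrc5 were also below 0 but above that median (−0.04, −0.03 and −0.0085). The approximate 95% interval of the fold change lay within 2-fold in both directions for all 10 genes and within 1.5-fold for 9, the exception being Psmb9. The spread between libraries was smaller in the knockout group for 9 of the 10 genes, the exception being Nlrc5.

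**Figure D1:**
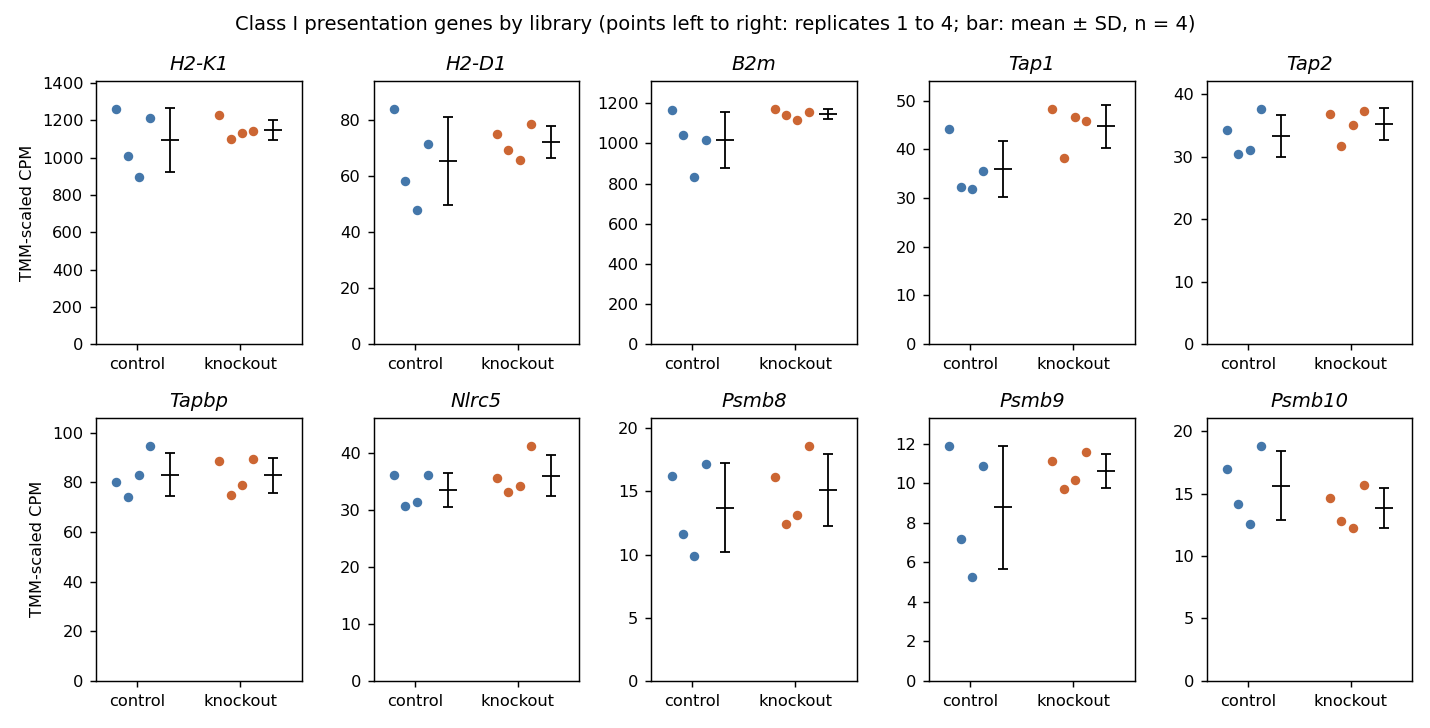
TMM-scaled CPM (vertical axis from 0) of the 10 class I presentation genes in the 4 control (blue) and 4 knockout (orange) libraries, with replicates 1 to 4 from left to right and the mean ± SD (n = 4) as a bar beside each group. The groups overlap in every panel, and the control points of H2-D1, Psmb8 and Psmb9 spread widely, with replicate 3 lowest.

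Heavy chain and light chain transcripts were abundant and did not pass the test. H2-K1, a classical class I heavy chain gene (chromosome 17, 33996017 to 34000347, minus strand, GRCm38), had 1259, 1011, 897 and 1213 CPM in control libraries 1 to 4 and 1226, 1101, 1133 and 1140 CPM in knockout libraries 1 to 4. The knockout values all lay inside the control range. The means were 1095 ± 170 and 1150 ± 53.6 CPM (SD, n = 4), a log2 fold change of 0.07 (SE 0.11, 95% interval −0.18 to 0.32, edgeR adjusted p = 0.755). Without control library 3, the lowest, the value was −0.01.

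H2-D1, the other classical heavy chain gene (chromosome 17, 35262730 to 35267499, plus strand), had 83.7, 58.0, 47.7 and 71.1 CPM in control and 74.8, 69.3, 65.7 and 78.5 CPM in knockout libraries. Its control values ran from below to above every knockout value. The log2 fold change was 0.15 (SE 0.16, 95% interval −0.20 to 0.50, edgeR adjusted p = 0.625). B2m, whose product is the light chain of all class I molecules (chromosome 2, 122147686 to 122153083, plus strand), had 1168, 1044, 831 and 1016 CPM in control libraries and 1170, 1143, 1116 and 1158 CPM in knockout libraries. The knockout values of B2m lay close together, while control library 1 was at their level and control library 3 was the lowest of all 8. The log2 fold change of B2m was 0.18 (SE 0.10, 95% interval −0.05 to 0.40, edgeR adjusted p = 0.347).

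Within a library, the balance of heavy to light chain transcripts can be read without library scaling, as the ratio of counts per base of gene length. The H2-K1 to B2m ratio was 0.558 ± 0.0474 in control and 0.518 ± 0.0191 in knockout libraries (exact two-sided permutation test, p = 0.171, 0.458 adjusted over the 6 ratios examined). The H2-D1 to B2m ratio was 0.0315 ± 0.00413 and 0.0310 ± 0.00193 (exact permutation p = 0.914). H2-K1 stood at 17.9 ± 1.63 times the H2-D1 level in control and 16.7 ± 1.19 times in knockout libraries (exact permutation p = 0.314, adjusted p = 0.471). None of these 3 proportions passed the permutation test.

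Among the peptide loading genes, Tap1 came closest to the threshold. Tap1 encodes one chain of the peptide transporter (chromosome 17, 34187553 to 34197225, plus strand) and had 44.3, 32.3, 31.9 and 35.6 CPM in control and 48.2, 38.3, 46.6 and 45.8 CPM in knockout libraries. Control library 1 lay above knockout library 2, and apart from that pair every knockout value was above every control value. The mean was 36.0 ± 5.74 CPM in control and 44.7 ± 4.41 CPM in knockout libraries, a log2 fold change of 0.31 (SE 0.12, 95% interval 0.05 to 0.57). The unadjusted p was 0.0236 and the edgeR adjusted p was 0.155. Knockout minus control differences of same-numbered libraries were 0.12, 0.24, 0.55 and 0.36 on the log2 scale, above 0 in 4 of 4, and the adjusted p with the replicate block was 0.0585. In size, the change of Tap1 was larger than that of 74.0% of all tested genes.

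Tap2, the other transporter chain (chromosome 17, 34203527 to 34216321, plus strand), had 34.2, 30.4, 31.0 and 37.6 CPM in control and 36.8, 31.7, 35.0 and 37.4 CPM in knockout libraries. Every knockout value of Tap2 lay inside the control range, with a log2 fold change of 0.08 (SE 0.09, 95% interval −0.11 to 0.28, edgeR adjusted p = 0.633). Tapbp, which encodes tapasin (chromosome 17, 33915899 to 33929292, plus strand), had 80.3, 74.2, 83.1 and 94.6 CPM in control and 88.4, 75.0, 78.9 and 89.3 CPM in knockout libraries. Its means of 83.0 ± 8.58 and 82.9 ± 7.08 CPM gave a log2 fold change of −0.0027 (SE 0.09, 95% interval −0.21 to 0.20, edgeR adjusted p = 0.99). The sign of Tapbp changed under 8 of the 16 alternative settings.

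Nlrc5, the transactivator of class I genes (chromosome 8, 94434356 to 94527272, plus strand), had 36.1, 30.7, 31.4 and 36.2 CPM in control and 35.6, 33.1, 34.2 and 41.3 CPM in knockout libraries. Knockout library 4 was the highest of all 8, and the other 3 lay inside the control range. The log2 fold change was 0.10 (SE 0.09, 95% interval −0.10 to 0.31, edgeR adjusted p = 0.551).

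The immunoproteasome subunit genes were the least abundant of the 10 by CPM, and none passed the test. Psmb8, whose product replaces that of Psmb5 (chromosome 17, 34197721 to 34201454, plus strand), had 16.2, 11.6, 9.86 and 17.1 CPM in control and 16.2, 12.5, 13.2 and 18.6 CPM in knockout libraries. In both groups libraries 1 and 4 were higher than libraries 2 and 3, and the log2 fold change was 0.14 (SE 0.20, 95% interval −0.30 to 0.58, edgeR adjusted p = 0.724). Psmb9, whose product replaces that of Psmb6 (chromosome 17, 34181987 to 34187764, minus strand), had 11.9, 7.18, 5.24 and 10.9 CPM in control and 11.1, 9.71, 10.2 and 11.6 CPM in knockout libraries. Control libraries 2 and 3 were below every knockout value and control library 1 was above them all. The log2 fold change of Psmb9 was 0.28 (SE 0.23, edgeR adjusted p = 0.529), and its 95% interval, −0.24 to 0.80, reached up to 1.74-fold.

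Psmb10, whose product replaces that of Psmb7 (chromosome 8, 105935735 to 105938444, minus strand), had 16.9, 14.2, 12.6 and 18.8 CPM in control and 14.7, 12.8, 12.2 and 15.7 CPM in knockout libraries. Each knockout library had a lower value than the control library of the same number, yet the groups overlapped. The log2 fold change was −0.18 (SE 0.14, 95% interval −0.48 to 0.13, edgeR adjusted p = 0.492).

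**Figure D2:**
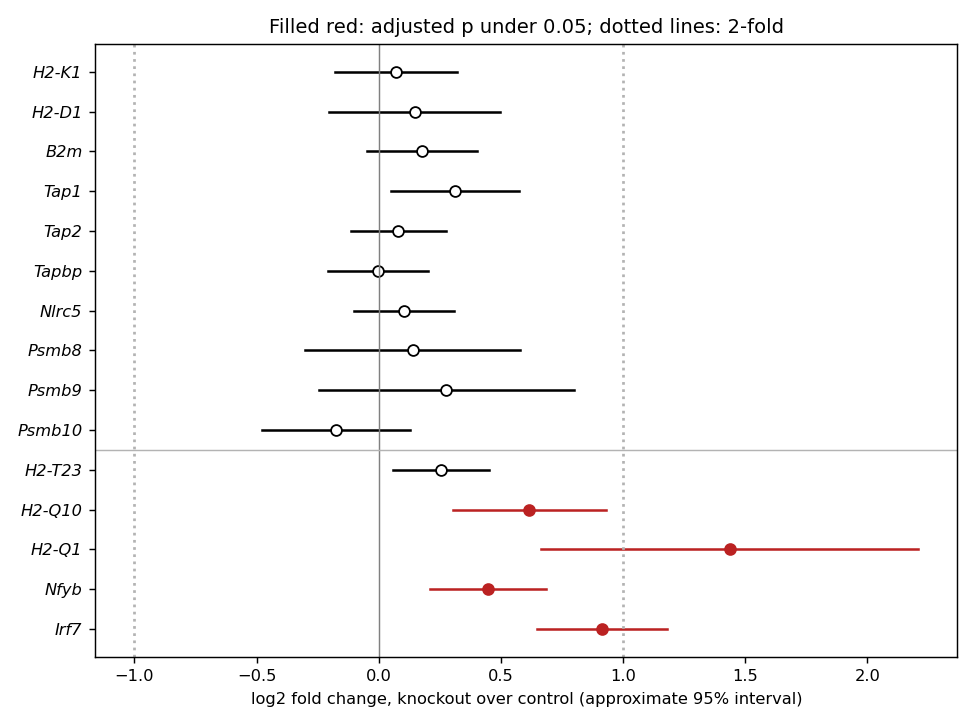
Log2 fold change of knockout over control (horizontal axis) with its approximate 95% interval from edgeR for the 10 class I presentation genes, above the line, and for H2-T23, H2-Q10, H2-Q1, Nfyb and Irf7, below it. Filled red points have adjusted p under 0.05, and dotted lines mark 2-fold. All 10 intervals of the upper block lie between the dotted lines, from −0.48 to 0.80. H2-Q10, H2-Q1, Nfyb and Irf7 are shown because they passed the test. They were the only 4 called among the 97 tested genes of the related lists.

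Each immunoproteasome subunit was also set against its constitutive partner, as a ratio of counts per base. The Psmb8 to Psmb5 ratio was 0.305, 0.244, 0.253 and 0.330 in control and 0.304, 0.200, 0.257 and 0.388 in knockout libraries (means 0.283 ± 0.0414 and 0.287 ± 0.0794, exact permutation p = 0.943). The Psmb9 to Psmb6 ratio was 0.250, 0.159, 0.145 and 0.220 in control and 0.247, 0.197, 0.232 and 0.266 in knockout libraries (0.193 ± 0.050 and 0.236 ± 0.0292, exact permutation p = 0.229, adjusted p = 0.458). For Psmb10 to Psmb7 the values were 0.124, 0.112, 0.111 and 0.150 in control and 0.107, 0.0835, 0.0927 and 0.121 in knockout libraries (0.124 ± 0.0180 and 0.101 ± 0.0163, exact permutation p = 0.114, adjusted p = 0.458). Constitutive subunit transcripts thus exceeded their inducible counterparts in every library of both groups. The library values of the groups overlapped for all 3 ratios, and none passed the permutation test. The smallest p that 4 against 4 libraries can give is 0.0286, so with 6 ratios a single one at that floor has an adjusted p of 0.171 and 4 of the 6 would have to reach it to pass 0.05. The adjusted p-values therefore had little power, and the unadjusted ones are not corrected for the 6 ratios examined. Neither shows that the ratios are alike.

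Set against the same-numbered control library, the Psmb10 to Psmb7 ratio was lower in 4 of 4 knockout libraries, by log2 differences of −0.22, −0.43, −0.25 and −0.31. The H2-K1 to B2m ratio was also lower in 4 of 4, by −0.04, −0.01, −0.09 and −0.28. For both, exact sign flips within the 4 pairs gave p = 0.125, the smallest that 4 pairs allow, so these differences could not pass a paired test of this kind. The other 4 ratios had differences of both signs.

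**Figure D3:**
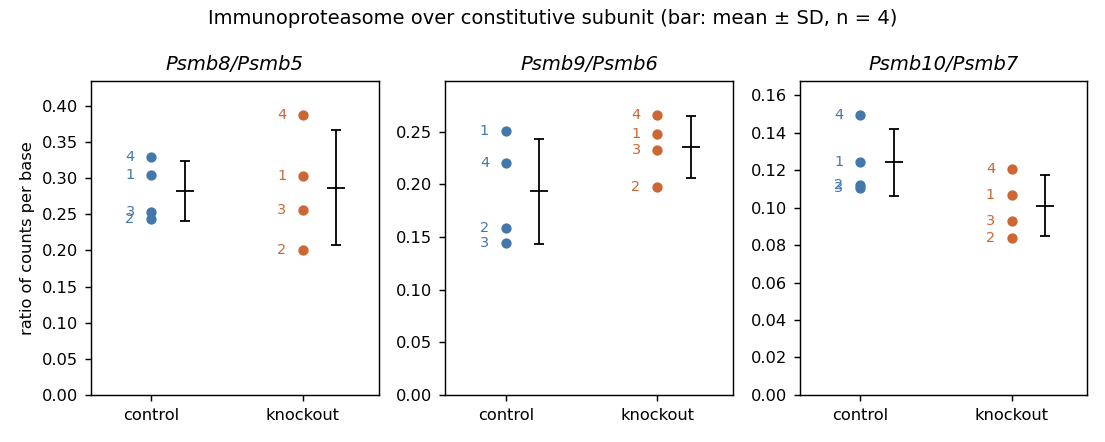
Ratio of counts per base of each immunoproteasome subunit gene to its constitutive partner (vertical axes from 0) in the 4 control (blue) and 4 knockout (orange) libraries, numbered by replicate, with the mean ± SD (n = 4) as a bar. Every ratio is at most 0.388, the groups overlap in each panel, and replicate 4 of the knockout group is the highest for Psmb8/Psmb5 and Psmb9/Psmb6.

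Levels can be ordered between genes only per length, here as CPM per kilobase of the deposited gene length. In control libraries B2m led with 1183 ± 162 CPM per kilobase, followed by H2-K1 with 660 ± 103, H2-D1 with 37.5 ± 9.02 and Tapbp with 30.2 ± 3.12. Tap2 (13.4), Psmb10 (12.3), Tap1 (12.2), Psmb8 (11.2) and Psmb9 (10.9) formed a group in which each neighbour overlapped the next, and Nlrc5 was lowest with 4.83 ± 0.428 CPM per kilobase. H2-D1 and Tapbp overlapped in control libraries. In knockout libraries the first 4 and the last kept their places, and the 5 genes between ran from Tap1 (15.2) through Tap2 (14.1), Psmb9 (13.2) and Psmb8 (12.3) to Psmb10 (10.9 CPM per kilobase), again with overlapping neighbours.

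The 10 genes moved together between libraries inside each group. In control libraries 1 and 4, 9 of the 10 genes were above their group mean, and in control libraries 2 and 3 only 1 was. In knockout libraries 1 to 4 the numbers were 9, 0, 1 and 9. The mean deviation over the 10 genes was 0.22, −0.13, −0.27 and 0.18 on the log2 scale in control libraries 1 to 4 and 0.07, −0.12, −0.07 and 0.12 in the knockout libraries. Across the 45 pairs of the 10 genes, Pearson's r of these deviations over the 8 libraries had a median of 0.74, ranged from −0.08 (B2m with Tapbp) to 0.98 and exceeded 0.5 in 38 pairs. This is a description of 8 libraries that share depth and tissue composition across genes, and r was not computed for other sets of genes. Outside the set, 11243 genes with a mean of at least 1 CPM were ranked, leaving out symbols of predicted genes, RIKEN clones and pseudogenes. Those whose deviations were most like the mean of the 10 were Fn3k (r = 0.985), Wfdc21 (0.983), Aldh1b1 (0.972), Atp6v1g1 (0.968), Apof (0.957), Rdh5 (0.957), Ifi30 (0.956) and Bhmt2 (0.954). Of these, Fn3k fell in the knockout libraries, with means of 11.3 ± 1.22 and 8.30 ± 0.555 CPM (log2 fold change −0.44, SE 0.10, edgeR adjusted p = 0.0356), and the other 7 did not pass the test, although Atp6v1g1 did with the replicate block (adjusted p = 0.0383). The Fn3k call was lost in 7 of 8 fits without 1 library, with adjusted p = 0.105, 0.0632 and 0.0766 without control libraries 1, 2 and 4 and 0.0797, 0.0932, 0.103 and 0.0577 without knockout libraries 1 to 4.

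Some lists of markers of other liver cells varied by library in a partly similar way, and others did not. The summed level of 5 pan-leukocyte genes was 30.6, 21.8, 27.4 and 33.1 CPM in control and 43.5, 21.3, 24.8 and 52.9 CPM in knockout libraries, so libraries 1 and 4 were highest in both groups. The 9 Kupffer cell markers summed to 497, 437, 415 and 689 CPM in control and 469, 304, 312 and 667 CPM in knockout libraries, with the same libraries on top. C6 made up much of that sum in control libraries (291, 286.5, 210.9 and 479.6 CPM), and without it the other 8 summed to 206.3, 150.3, 203.6 and 209.2 CPM in control and 258.9, 117.1, 156.9 and 334 CPM in knockout libraries, so control library 3 was then level with control libraries 1 and 4. Class II presentation genes, 12 in all, summed to 143, 75.1, 79.1 and 111 CPM in control and 111, 62.1, 78.8 and 140 CPM in knockout libraries. Sums of 7 neutrophil markers were 6.52, 1.53, 2.03 and 13.3 CPM in control and 76.7, 1.91, 1.5 and 33.4 CPM in knockout libraries. Monocyte and dendritic cell markers summed to 10.9, 8.4, 8.99 and 14.3 CPM in control and 19.7, 11.1, 11.5 and 23.4 CPM in knockout libraries. Some other lists did not keep this order in both groups. Cholangiocyte sums were 37.1, 31.5, 31.2 and 46.8 CPM in control and 23.3, 41.1, 35.3 and 25.8 CPM in knockout libraries. Spp1, named after its values were seen, made up most of every cholangiocyte sum. It had 35.2, 29.8, 29.2 and 45.2 CPM in control and 22.2, 38.9, 32.8 and 24.5 CPM in knockout libraries. Endothelial sums were 173, 179, 242 and 172 CPM in control and 210, 171, 212.5 and 248 CPM in knockout libraries. In the same order, stellate cell sums were 188, 262, 261, 270, 224, 200, 311 and 248 CPM. B cell sums were 3.55, 1.33, 4.56, 3.39, 5.52, 3.51, 3.59 and 4.3 CPM. T cell markers summed to 5.96, 2.75, 3.32 and 6.49 CPM in control and 3.99, 2.12, 2.17 and 5.21 CPM in knockout libraries. Libraries 1 and 4 were thus highest in both groups for T cell markers. Natural killer and cytotoxic markers summed to 2.97, 1.35, 1.9 and 1.84 CPM in control and 2.96, 1.39, 1.65 and 2.99 CPM in knockout libraries. The part of any cells of these lists in the shared variation of the 10 genes was not tested. Cd4 made up much of the T cell sum, with means of 3.22 CPM in control and 1.96 CPM in knockout libraries. Il2rb made up much of the other sum (1.15 and 1.03 CPM). Both were named after their values were seen. No list of 11 held a marker at 0 in all libraries, and edgeR called 0 of their 80 tested genes, against 5.39% of all tested genes.

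**Figure D4:**
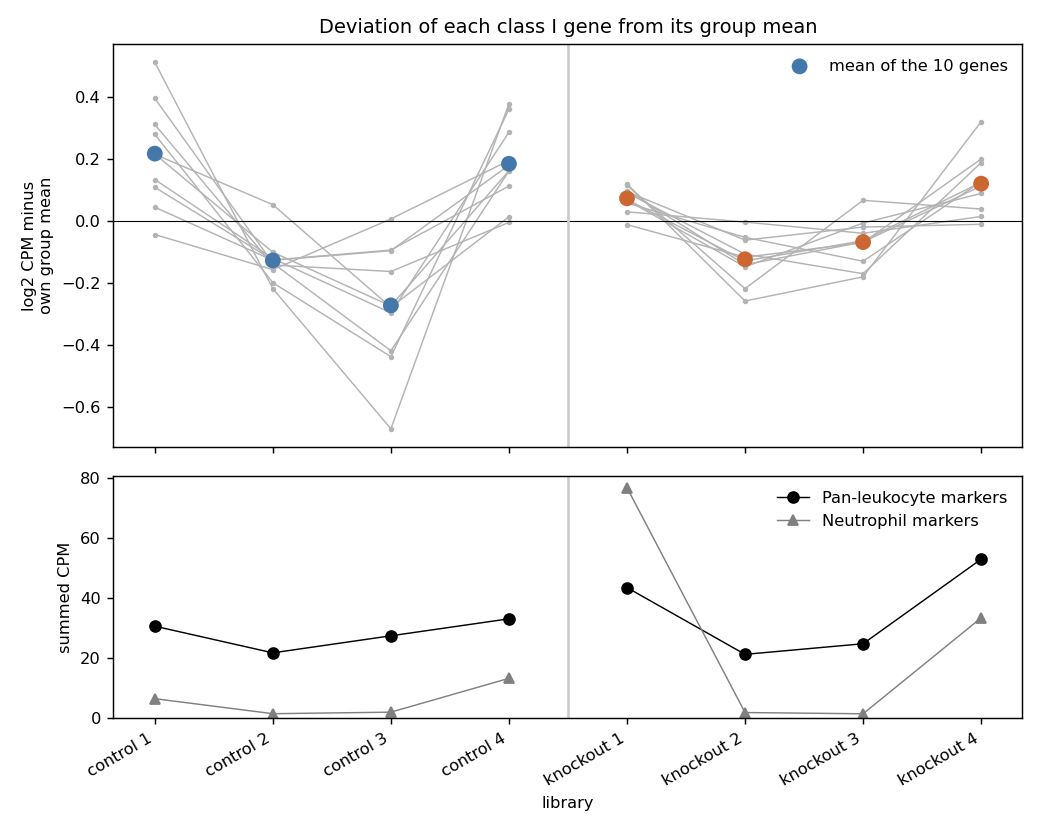
Upper panel, log2 CPM of each of the 10 class I presentation genes minus its own group mean (grey lines) and the mean of the 10 (coloured points) by library. Lower panel, summed CPM of pan-leukocyte (circles) and neutrophil (triangles) markers in the same libraries. Libraries 1 and 4 of both groups lie above 0 on average (0.22, 0.18, 0.07 and 0.12) and libraries 2 and 3 below it.

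Other class I heavy chain and class I-like genes included 2 that rose, and 0 fell, among 17 tested of 27. Of all tested genes, 3.51% were called higher, and the groups did not overlap for 15.1%. Their median log2 fold change was 0.14. H2-Q10, a class I gene expressed mainly in liver whose product is secreted (chromosome 17, 35470089 to 35474563, plus strand), had 2267, 1860, 1703 and 2544 CPM in control and 3436, 3512, 3183 and 2706 CPM in knockout libraries. Every knockout value was above every control value. H2-Q10 rose from 2093 ± 383 to 3209 ± 364 CPM, a log2 fold change of 0.62 (SE 0.14, 95% interval 0.30 to 0.93, edgeR adjusted p = 0.0357). Leaving out 1 library ended this call in 6 of 8 fits, with adjusted p = 0.0717, 0.092 and 0.0545 without control libraries 1, 2 and 3 and 0.0978, 0.0868 and 0.0856 without knockout libraries 1, 2 and 3. The 9 hepatocyte markers had log2 fold changes above 0 for 4 and below 0 for 5, with a median of −0.05, and edgeR called 0 of them (3 at an unadjusted p under 0.05). Their sum was higher in each knockout library than in any control library, but Alb made up most of it (54750 to 62350 CPM in control and 68170 to 75940 CPM in knockout libraries). The other 8 summed to 21910 to 24540 CPM in control and 23020 to 26120 CPM in knockout libraries, which overlap. The part of these cells in the H2-Q10 result was not tested.

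H2-Q1, another gene of the Q region (chromosome 17, 35320405 to 35325099, plus strand), had 14.6, 4.24, 9.66 and 12.8 CPM in control and 29.6, 27.4, 31.9 and 22.6 CPM in knockout libraries, again without overlap. It rose from a mean of 10.3 ± 4.53 to one of 27.9 ± 3.94 CPM, a log2 fold change of 1.44 (SE 0.34, 95% interval 0.66 to 2.21, edgeR adjusted p = 0.049). That call was lost with the replicate block (adjusted p = 0.0792), with no count filter (0.0788) and in 7 of the 8 fits that left out 1 library: 0.0566, 0.0872 and 0.0686 without control libraries 1, 3 and 4, and 0.121, 0.118, 0.124 and 0.0708 without knockout libraries 1 to 4. H2-Q2 and H2-T23, the latter encoding the class Ib molecule Qa-1, had log2 fold changes of 1.01 (edgeR adjusted p = 0.119, or 0.0186 with the replicate block) and 0.25 (adjusted p = 0.127). H2-Q7, H2-Q8, H2-Q9 and H2-L had 0 to 6 counts per library, so no change in them was detectable. Whether H2-Q10 differed from H2-K1 or H2-D1 in its response was not tested. Its 95% interval overlaps those of both, for H2-K1 only narrowly (0.30 to 0.93 against −0.18 to 0.32). Overlap of intervals does not show that the responses are alike.

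Partner genes of the loading and cutting steps gave no called gene. Of 15 tested genes of peptide loading and trimming, edgeR called 0 in either direction at a median log2 fold change of −0.07, against 2 at an unadjusted p under 0.05. The lowest adjusted p-values there were 0.12 for Prkcsh, a glucosidase subunit gene (log2 fold change −0.19), and 0.144 for Thop1, which encodes a peptidase that degrades cytosolic peptides (−0.41). Pdia3, whose product is part of the loading complex, had −0.31 (edgeR adjusted p = 0.288), and the trimming peptidase gene Erap1 −0.15 (adjusted p = 0.299). Of 11 constitutive partners, activators and assembly factors of the proteasome, edgeR called 0 (1 at an unadjusted p under 0.05), with log2 fold changes of 0.16 for Psmb5, 0.03 for Psmb6 and 0.14 for Psmb7. The 11 other 20S core subunit genes had 0 called, 0 at an unadjusted p under 0.05, and a range of −0.13 to 0.06.

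Regulators of class I genes included 2 that rose and 0 that fell among 20 tested, at a median log2 fold change of −0.07. Over all tested genes, 3.51% were called higher, and 15.1% had groups without overlap. Irf7, an interferon-inducible transcription factor gene, had 36.9, 31.2, 34.4 and 43.5 CPM in control and 74.2, 56.8, 72.1 and 72.1 CPM in knockout libraries. All knockout values of Irf7 were above all control values, and it rose by a log2 value of 0.91 (SE 0.12, edgeR adjusted p = 0.00514), with adjusted p of at most 0.0227 when any one library was left out.

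Nfyb, which encodes a subunit of the CCAAT-binding factor NF-Y, rose from a mean of 38.8 ± 5.55 to one of 52.9 ± 4.08 CPM, a log2 fold change of 0.45 (SE 0.11, edgeR adjusted p = 0.0409). The Nfyb call was lost with total counts alone (0.0711) and in 7 of 8 fits without 1 library, with adjusted p = 0.11, 0.083 and 0.0731 without control libraries 1, 2 and 4 and 0.117, 0.0638, 0.0811 and 0.0898 without knockout libraries 1 to 4. Irf3 and Irf2 had log2 fold changes of −0.25 and −0.33 (edgeR adjusted p = 0.14 and 0.142, the latter 0.0263 with the replicate block). Irf1 and Rfx5 were chosen after their values were seen, as a classical inducer of class I genes and an enhanceosome subunit. They had log2 fold changes of −0.43 and −0.26 (edgeR adjusted p = 0.355 and 0.25).

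Genes of the interferon gamma pathway gave 0 called genes of 12 tested by edgeR, with 1 at an unadjusted p under 0.05, at a median log2 fold change of 0.10. Ifng had 0 counts in all 4 control libraries and 4, 0, 2 and 0 counts in knockout libraries, at or near the floor of 3 counts. The chemokine genes Cxcl10 and Cxcl9 had log2 fold changes of 0.69 (edgeR adjusted p = 0.062) and 0.64 (adjusted p = 0.311). Cxcl10 passed the threshold with the replicate block (edgeR adjusted p = 0.048), with DESeq2 (0.00411) and with limma (0.0463). Gbp2, a guanylate-binding protein gene, had 0.35 (adjusted p = 0.267). Of 11 tested class II presentation genes edgeR called 0, with 0 at an unadjusted p under 0.05 and a median log2 fold change of 0.02. Over all 7 lists of related genes, 97 of 110 genes in the table were tested, and 4 were higher and 0 lower. That share of higher genes is near the 3.51% of all tested genes called higher.

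Because the deleted protein binds AU-rich elements, the 3′ UTRs were searched for the core element UAUUUAU, written here as TATTTAT, in the longest 3′ UTR of each gene in GENCODE M21. Of the 10 class I presentation genes only Nlrc5 held it, at base 744 of 1197, against 29.7% of 13707 tested genes with a 3′ UTR. The 3′ UTRs of the 10 were shorter than usual, with a median of 449.5 against 1155 bases. Of the 4 related genes that rose, Nfyb held it at base 502 of 1714, and H2-Q1, H2-Q10 and Irf7 held none. The sites are shown with 10 bases on each side and the element in capitals.
Nlrc5: tttttttaagTATTTATaagcaccttc
Nfyb: ttttagcattTATTTATtgaaaacttt
These are matches of letters, and binding was not measured.

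Some of the genes share sequence or exons with others, which bears on how reads were assigned, and neither the strand setting nor the treatment of reads with several matches is given in the sources used here. Tap1 and Psmb9 run in opposite directions and share 212 exon bases. Of all 50-base stretches of H2-K1 transcripts, 9.63% also occur in another gene's transcripts, chiefly those of H2-Q10, and for H2-D1 it is 12.8%, chiefly H2-Q1. At 100 bases the shares are 0.957% and 3.59%. For the 2 genes that rose, 19.1% of 50-base stretches of H2-Q10 and 15.0% of those of H2-Q1 are shared, chiefly with H2-Q7 and H2-Q2, and 8.01% and 8.05% at 100 bases. B2m and Psmb10 share none. Tapbp shares 23.2%, chiefly with Gm19412, a gene on the opposite strand that is not a row of the table, and it also shares 149 exon bases with Zbtb22 on the same strand. Values of the heavy chain genes are therefore uncertain to the extent that such reads were split between them.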

How the data were processed

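The authors deposited raw counts per gene for 8 liver libraries, and per the file headers a length in bases for each gene. The genome build is mm10, per the submitters' processing notes. The illustra QuickPrep mRNA Purification kit and the NEBNext Ultra II kit were used, per the labels' protocols. The aligner, counter, annotation and strand setting were not given in the sources used here. Columns were matched to samples by library name. In each library 67.4% to 70.8% of values from 1 to 20 were even, against 48.4% to 50.7% from 1000 up, so counts divided by 2 were one alternative.

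Genes were filtered with filterByExpr (14861 kept, 10378 left out), scaled with TMM and tested with edgeR 4.0.16 (glmQLFit with robust estimation, glmQLFTest) in R 4.3.3, with Benjamini-Hochberg adjusted p under 0.05 as the threshold. Standard errors (absolute log2 fold change over the square root of F) and 95% intervals (t quantile at edgeR's degrees of freedom) are approximate. Per-kilobase levels and ratios use the deposited lengths. The procedure was tested on simulated data. Alternatives were another scaling, total counts alone, no filter, a mean of at least 1 CPM, DESeq2 1.42.0, limma 3.58.1 (voom with quality weights), the replicate block, counts divided by 2 and leaving out each library. Sign flips of the ratios within pairs and marker sums without the most abundant gene were added after seeing the data.

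Replicate numbers are shared between the groups, and the labels do not say what they mark. Deviations from the group means of same-numbered libraries correlated across genes at r = 0.17, 0.39, 0.31 and 0.40, each library best with its own number, so the numbers were treated as pairs in the replicate block.

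Genes and lists were chosen with earlier results of these data known. Beyond the 10 genes, those named are the proteasome partners, up to 4 genes per list with the lowest adjusted p, changed genes where 5 or fewer changed, and the 8 genes most like the 10. The lists held 7 sets of related genes (110 in the table) and 11 sets of cell markers (86). Some results are not reported here. Positions and 3′ UTRs come from GENCODE M21 (GRCm38, the assembly of mm10) and promoters from RefSeq.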

Additional observations from a re-analysis of the deposited data

Results flagged for a closer look

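The 42 sets of 4 libraries examined were the 6 ratios and the CPM of only some of the named genes, by group. Of these sets, 1 stood out by the gap of its extreme library, and chance alone gives about 1 in 20. Other named genes can hold such a library. Cxcl9, not in these sets, had 11.95, 6.355, 6.295 and 5.645 CPM in control libraries 1 to 4. Irf7 was at 56.8 CPM in knockout library 2, against 72.1 to 74.2 CPM in the other 3 knockout libraries. The gap was 0.877 of the group's range, above the critical value of 0.829. All 4 values lay above the control libraries.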

How the results depend on the processing

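None of the 10 class I presentation genes was called in any of the 160 fits of 16 alternatives (log2 fold changes −0.29 to 0.46), and 148 kept the sign. The 12 that reversed were Tapbp with DESeq2 size factors (0.0069), a mean of at least 1 CPM (0.0057), DESeq2 (0.0056), halved counts (0.0016), and without control libraries 3 and 4 (0.0012 and 0.07) or knockout libraries 2 and 3 (0.04 and 0.02; −0.05 to 0.07 over the 8 fits that left out 1 library), H2-K1 with total counts (−0.04) and without control library 3 (−0.01), and Tap2 (−0.03) and Nlrc5 (−0.0085) with total counts. Other reversals were Psma5 (−0.06) and Psmb6 (−0.09) with total counts, Psmb6 with limma (−0.04) and without control library 3 or knockout library 2 (−0.06 to 0.08 over the 8 fits), H2-Ab1 without control library 1 (−0.38 to 0.09), and Ciita without knockout library 2 (−0.35 to 0.01). Without control library 1 or 4 or knockout library 2 or 3, the log2 ratios Psmb8/Psmb5 (−0.17 to 0.15) and H2-D1/B2m (−0.07 to 0.05) were above 0. The cause was not tested.

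Over all genes, 521 were higher and 280 lower. DESeq2 gave 982 and 681, limma 830 and 604, and total counts alone 392 and 1338, after a shift of the median. Leaving out 1 library gave 169 to 583 higher and 42 to 384 lower. In the lists of related genes, the 4 higher became 6 with DESeq2, 5 with limma, 6 with the replicate block and 1 to 2 without 1 library, and the 0 lower became 6 with total counts, 2 with limma and 0 to 2 without 1 library. In the marker lists, the 0 higher became 1 with a mean of at least 1 CPM, 5 with DESeq2, 4 with limma and 0 to 1 without 1 library.

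With the replicate block, 653 genes were higher and 375 lower. In the lists of related genes 1 was then lower (Irf2, log2 fold change −0.33, adjusted p = 0.0263) and Mr1 (0.50, adjusted p = 0.0258) was higher. In the marker lists 3 were higher (Lyve1, Prf1 and Ttr) and 2 lower (C6 and Cd4), named after their values were seen. The block also changed the calls of H2-Q1, H2-Q2, Cxcl10 and Atp6v1g1, and no other call of a gene named in the results.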
